A study of Macaca mulatta with 24 samples.

Results

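Chromosome 19 of the rhesus macaque (rheMac8 build) was described through every CpG of the methylation table that was placed on it. These were 62025 of the 841143 measured CpGs, or 7.37%, and they were chosen by chromosome name alone, without reference to any methylation value. The first lay at position 33633 and the last at position 53648734, a span of 53.6 Mb. Reduced representation bisulfite sequencing (RRBS) had been used to measure DNA methylation. In this assay genomic DNA is cut with MspI, an enzyme that recognizes CCGG, so that CpG-rich sequence is enriched, and bisulfite converts unmethylated but not methylated cytosine. The libraries came from omental (visceral) white adipose tissue of 24 female macaques, aged 4 years in the labels and biopsied after 3 years of treatment. The study's methods give a higher age at biopsy than the labels. Each of 4 groups held 6 animals. Controls (C) carried cholesterol implants and ate monkey chow, T animals carried testosterone implants on chow, WSD animals carried cholesterol implants on a high-fat western-style diet, and T+WSD animals carried testosterone implants on that diet. An implant was thus common to all groups, and the testosterone implants were meant to give the hyperandrogenemia seen in polycystic ovary syndrome. C and T+WSD animals are numbered 1 to 12 and T and WSD animals 13 to 24; the labels name no batch. A group of animals that differs by this numbering cannot be told apart from an interaction of both treatments.

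In primates, chromosome 19 is known as a small, GC-rich chromosome crowded with genes, and it carries long clusters of KRAB zinc finger genes, whose products silence transposable elements through repressive chromatin. CpG islands, the CpG-dense stretches at many promoters, usually stay unmethylated, whereas scattered CpGs in gene bodies and between genes are mostly methylated. CpG-dense stretches that are methylated occur at silenced promoters, in imprinted regions, within gene bodies and near chromosome ends. In the RefSeq gene table of another macaque assembly, T2T-MMU8v2.0, chromosome 19 carried 1508 of the 20523 protein-coding genes of chromosomes 1 to 20 (7.35%), the second highest number. The same table placed 189 of 445 genes with a zinc finger symbol or name there (42.5%), followed by 33 on chromosome 20. Coordinates of that assembly cannot be set against those of rheMac8, so the sites below are given by position and not by gene. An adipose biopsy holds adipocytes, stromal, vascular and immune cells, and a change in this mixture cannot be told apart from a change of methylation within a cell type.

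Chromosome 19 was the most densely measured of the 20 chromosomes. It held 1157 measured CpGs per Mb, 1.82 times the density of chromosome 16, the next (635 per Mb), and 4.49 times the median of the other 19 chromosomes (258 per Mb). The lowest density was on chromosome 5 (167 per Mb). More tiles of 1 kb were covered per Mb (187, against 32.6 to 120 elsewhere), and each covered tile held more CpGs (6.20 on average, against 4.84 to 5.46). The median distance from a measured CpG to the next was 16 bp, against 17 to 20 bp on other chromosomes. Missing values were rarest on chromosome 19 (4.35% of all values, against 4.39% to 4.76%), and 36933 of its CpGs (59.5%) had a value in all 24 animals. Between 52442 and 61015 chromosome 19 CpGs had a value in a single animal. T 16 had the lowest number and lacked 15.5% of the CpGs, while the other animals had at least 56838. No 2 animals looked like repeats of a library: over 8461 CpGs of intermediate level, at most 0.875% of values were identical in any of 276 pairs of animals.

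Over CpGs with a value in every animal, the mean methylation of chromosome 19 was 45.6% ± 0.592 (SD between animals, n = 24), and the mean of the other chromosomes was 45.2% ± 0.508. The lowest animal had 44.5%, the median animal 45.7% and the highest 46.6%. Chromosome 19 ranked 8th or 9th of 20 in every animal, between chromosome 2 (39.8%) and chromosome 18 (51.8%). It was the higher of both means in 23 of 24 animals, by 0.423 ± 0.237 percentage points (two-sided sign-flip permutation test, p = 1e-05, the smallest that 100000 permutations can give). That test weighs the difference against its spread between animals, not against the spread between chromosomes. The direction depended on which CpGs were used and on how they were weighted. With every CpG that had a value, chromosome 19 was the lower, with a difference of -0.418 points. With each 1 kb tile counted once it had 57.9% ± 0.657 against 61.5% ± 0.699, a difference of -3.58 points. In that count it ranked 18th to 20th of 20 in the 24 animals. In C, 34.1% of its CpGs lay under 10% methylation, 37.8% between 10% and 90% and 28.1% over 90%. The share over 90% ranked 17th of the 20 chromosomes. Across the 20 chromosomes, which share libraries and differ in base composition, CpG density and mean level had a Pearson correlation of 0.198 and a Spearman correlation of 0.319, and without chromosome 19 these were 0.305 and 0.333 over 19 chromosomes. Chromosome 19 thus lay far out on the density axis and near the middle of the levels.

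**Figure D1:**
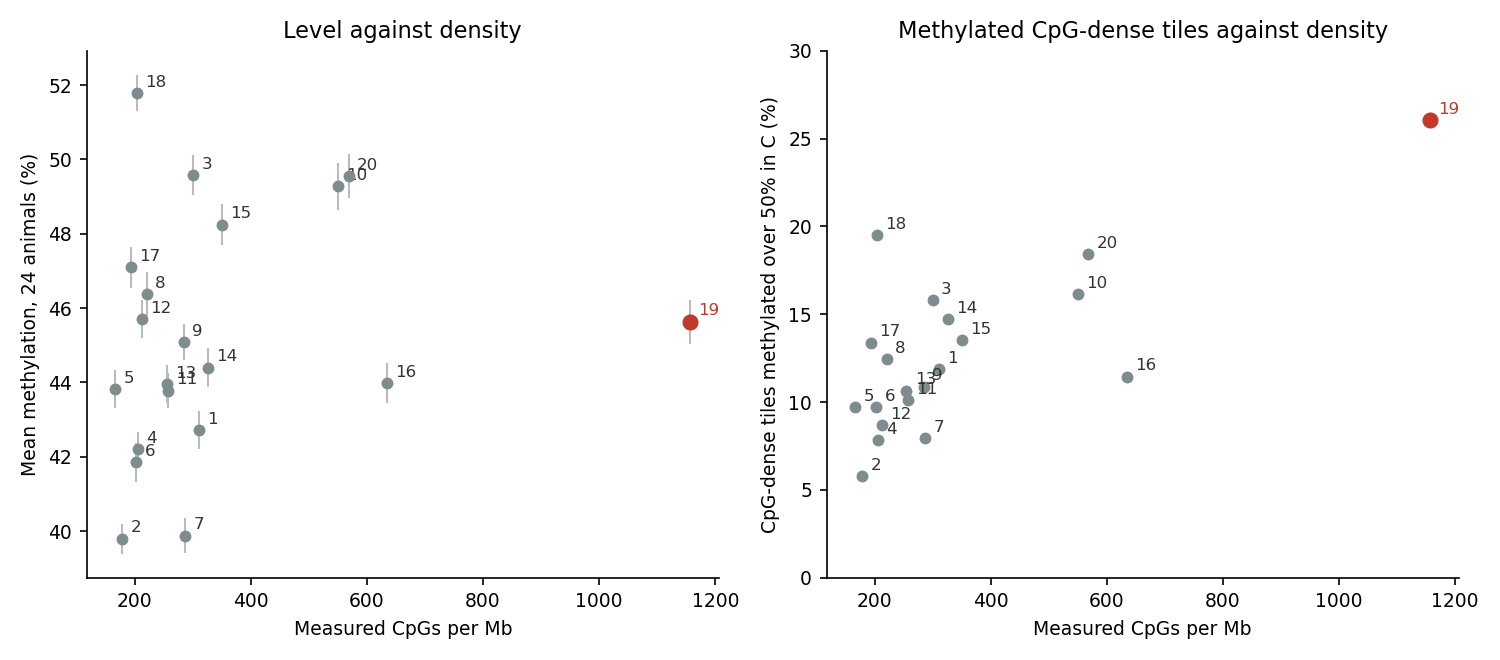
The left panel plots mean methylation (percent, over CpGs with a value in all 24 animals; bars are SD between animals) against measured CpGs per Mb for chromosomes 1 to 20, and the right panel plots, against the same axis, the percentage of tiles with more than 20 CpGs that were over 50% methylated in C. Chromosome 19 (red) stands alone at 1157 CpGs per Mb, with an intermediate level (45.6%) and the highest share of methylated CpG-dense tiles (26.0%).

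Differences from the other chromosomes ran in opposite directions in CpG-poor and CpG-dense tiles. Tiles of 1 kb were grouped by the number of measured CpGs, and chromosome 19 was compared with the mean of the other 19 chromosomes within each class. In tiles with 3 to 5 CpGs (3370 on chromosome 19) its level was 67.2% ± 0.766 (SD, n = 24) against 73.0% ± 0.762, a difference of -5.83 points that was negative in 24 of 24 animals. No other chromosome was lower in any animal. In tiles with 6 to 10 CpGs (2013) the level was 58.9% against 60.4%, a difference of -1.54 points. The order then turned. In tiles with 11 to 20 CpGs (1162) chromosome 19 had 41.9% ± 0.595 against 33.9% ± 0.505, a difference of 7.98 points, and ranked 4th. In tiles with 21 to 40 CpGs (388) it had 27.1% ± 0.778 against 14.3% ± 0.615, 12.8 points higher, and the next chromosome, 18, had 22.3%. In the 42 tiles with more than 40 CpGs it had 26.9% ± 1.80 against 10.04% ± 0.988, 16.8 points higher, and chromosome 8 was the next. In both of the densest classes chromosome 19 was the highest of 20 chromosomes in 24 of 24 animals. Each of the 5 differences had an adjusted p of 1e-05 (sign-flip permutation test, Benjamini-Hochberg over 5 classes), the smallest the permutations can give. This p-value sets a difference against its spread between animals, not against the spread between chromosomes. It was as small for tiles with 6 to 10 CpGs, where chromosome 19 ranked 13th. Standing among the chromosomes is thus given by the ranks alone.

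The gap in the densest classes was present in all groups. In tiles with 21 to 40 CpGs the level was 26.9% ± 0.288 in C, 26.9% ± 0.934 in T and 27.3% ± 0.892 in WSD, and 27.2% ± 0.942 in T+WSD. Animals ranged from 25.7% to 28.7%, and the highest value of any other chromosome in any animal was 24.3%. The gap was also present away from the chromosome ends: with the outer 2 Mb of every chromosome left out, a setting chosen after the data had been seen, the difference was 12.2 points in tiles with 21 to 40 CpGs and 11.3 points in those with more than 40. In tiles with 6 to 10 CpGs it shrank to -0.295 points, positive in 2 of 24 animals, and chromosome 19 ranked 11th. With density counted instead as CpGs within 100 bp of a CpG, chromosome 19 was higher from 6 CpGs upward (5.45 points for 6 to 10, 12.3 for 11 to 20 and 4.66 for 21 to 40), so the class of 6 to 10 changed direction, and no chromosome 19 CpG had more than 40 such neighbours. Under this definition chromosome 19 was the highest in 24 of 24 animals for 11 to 20 neighbours, but in 0 of 24 for 21 to 40, where it ranked 3rd with 12.5% and chromosome 14 had 18.5%. Had chromosome 19 the same mix of tile classes as the others, its tile mean would have differed by -1.98 points.

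**Figure D2:**
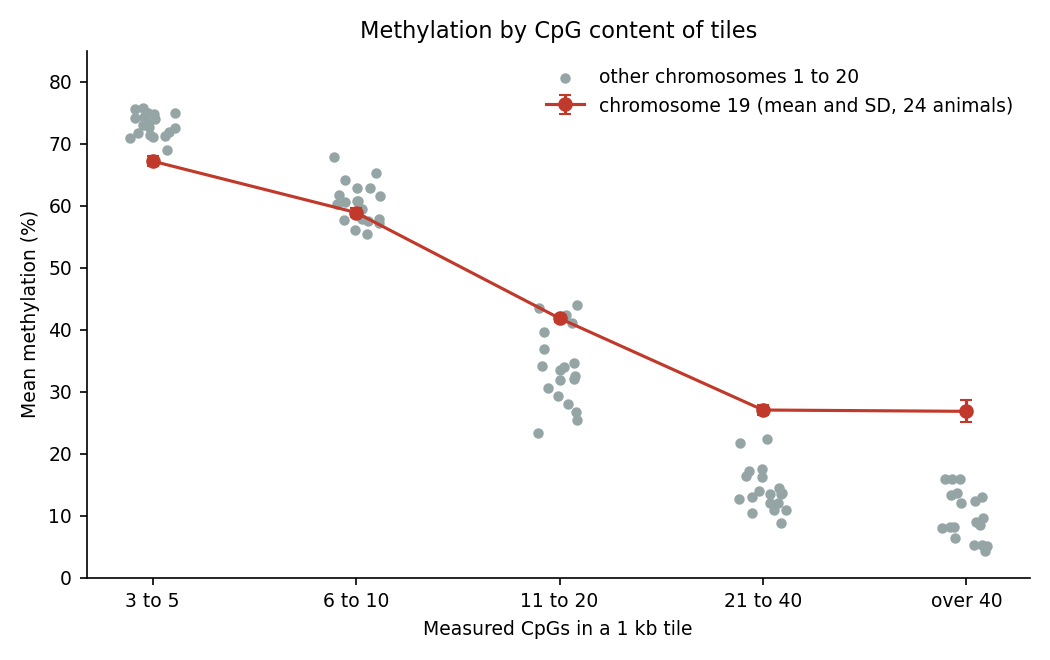
Mean methylation (percent) of 1 kb tiles is plotted by the number of measured CpGs in the tile, for chromosome 19 (red, mean and SD of 24 animals) and for each of the other 19 chromosomes (grey points, mean of 24 animals). Chromosome 19 lies lowest at 3 to 5 CpGs (67.2%) and highest at 21 to 40 (27.1%) and over 40 CpGs (26.9%).

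Chromosome 19 had 430 tiles with more than 20 CpGs, more than any other chromosome. In C, 251 of them (58.4%) were under 10% methylated, the lowest share of the 20 chromosomes (others 70.7% to 85.3%). A further 67 lay between 10% and 50%, 56 between 50% and 90%, and 56 over 90%. The 112 tiles over 50% made up 26.0% of its CpG-dense tiles, against 5.79% on chromosome 2 to 19.5% on chromosome 18. By number, the next chromosome had 50. The tiles with the most CpGs, picked after their values were seen, show the spread of states. The tile at chr19:51010001-51011000 (85 CpGs) had 17.3% ± 7.31 in C, 22.3% ± 8.08 in T and 25.2% ± 9.09 in WSD, and 22.9% ± 9.39 in T+WSD (SD, n = 6 each), and single animals ranged from 6.70% to 35.4%. The groups overlapped at this tile. The tile at chr19:49766001-49767000 (71 CpGs) was unmethylated in every animal, between 0.261% and 1.99%. The tile at chr19:53567001-53568000 (67 CpGs), in the last window of the chromosome, was methylated in every animal, between 97.7% and 99.1%. Tiles of like CpG content thus lay at either extreme, with less than 2 points between animals.

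Windows of 1 Mb gave the large-scale profile. All 54 windows of chromosome 19 held enough CpGs (at least 50 with a value in every animal), whereas each of the other chromosomes lost between 6 and 94 windows. The median number of measured CpGs in a window was 1072.5, against 170 to 540 elsewhere. The mean level of a window in C was 45.3%, and the SD between windows was 10.7 points, the lowest of the 20 chromosomes (others 12.4 to 18.6). The lowest window of chromosome 19 was higher than the lowest of any other chromosome (24.9%, against 3.58% to 22.4%), so broad unmethylated windows were not seen on it. Its windows differ from those elsewhere in the number of CpGs averaged, and the part of that number in the narrow spread was not tested. Neighbouring windows had a correlation of 0.283 over 53 pairs, against 0.0720 to 0.480 on other chromosomes. Window level and CpG number had a Pearson correlation of -0.0660 over the 54 windows. The profiles of any pair of animals correlated between 0.986 and 0.998 over the same 54 windows, so the order of high and low windows was nearly the same in each animal.

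The highest window in C was 26 to 27 Mb, with 75.7% ± 1.04 (SD, n = 6). It was followed by 5 to 6 Mb (68.2% ± 0.364) and by 23 to 24 Mb (67.9% ± 3.56), which had the fewest measured CpGs, 128. The lowest were 12 to 13 Mb (24.9% ± 0.683), 39 to 40 Mb (26.4% ± 0.371) and 50 to 51 Mb (30.9% ± 0.804). CpGs were most numerous at 1 to 2 Mb (3894), 0 to 1 Mb (3673) and 2 to 3 Mb (2282). The first 5 Mb had more measured CpGs per Mb and a higher mean level than any later 5 Mb segment. They held 2799 CpGs per Mb at a mean of 55.2%, and 40.8% of their 103 CpG-dense tiles were over 50% methylated in C. The first 2 Mb reached 3784 CpGs per Mb (mean 55.0%). The last 2 Mb had 52.2% at 965 CpGs per Mb, and the stretch between both ends had 44.1% at 1058 per Mb. In that stretch 21.5% of 340 CpG-dense tiles were over 50% methylated. Measured CpGs thinned out at 20 to 25 Mb (272 per Mb), where 1 tile had more than 20 CpGs, and the lowest 5 Mb segment was 30 to 35 Mb (36.6%).

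**Figure D3:**
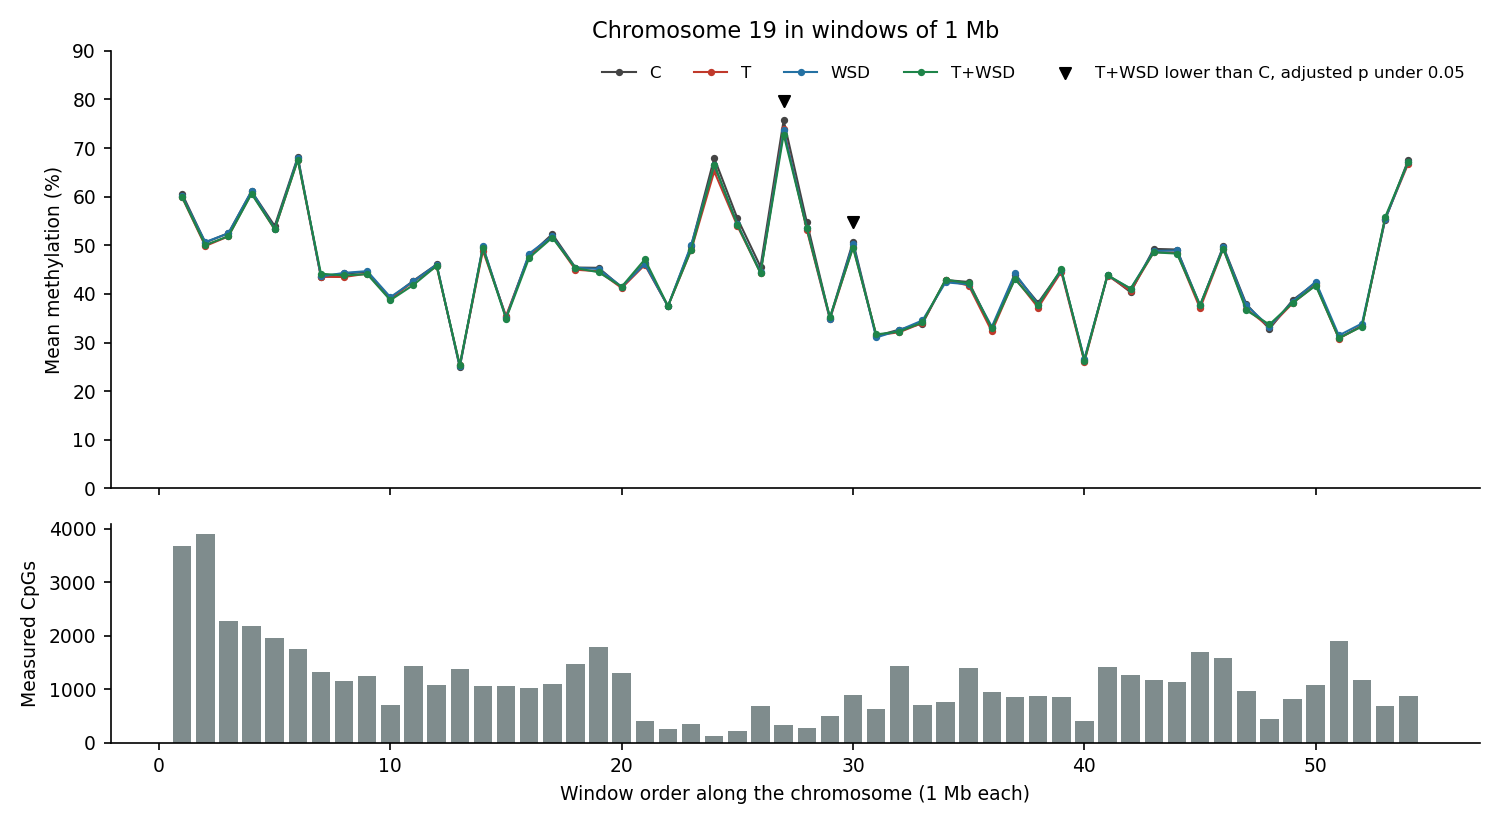
The upper panel plots mean methylation (percent, CpGs with a value in all animals) of each 1 Mb window of chromosome 19 in order along the chromosome, as the mean of 6 animals per group; triangles mark windows that were lower in T+WSD than in C at an adjusted p under 0.05. The lower panel gives the number of measured CpGs per window, and the 4 group lines lie almost on each other while windows range from 24.9% to 75.7% in C.

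Treatment differences over the whole chromosome were small. Mean methylation of chromosome 19 was 45.9% ± 0.327 in C, 45.4% ± 0.584 in T and 45.8% ± 0.733 in WSD, and 45.5% ± 0.671 in T+WSD (SD, n = 6 each). C animals ranged from 45.5% to 46.3% (median 45.8%), T animals from 44.5% to 46.1% (45.4%), WSD animals from 44.6% to 46.6% (46.0%) and T+WSD animals from 44.9% to 46.5% (45.2%), so each treated group overlapped C. Against C the difference was -0.455 points in T (two-sided exact permutation test over all splits of the animals, p = 0.121), -0.0682 in WSD (exact p = 0.864) and -0.366 in T+WSD (exact p = 0.247). The interaction was 0.157 (permutation p = 0.749). For this and the other permutation p-values of an interaction, animals were shuffled over all 4 groups. These p-values thus assume no effect of either treatment, and do not test the interaction beside separate effects of testosterone and diet. Adjusted over the 8 tests of this family, p was between 0.323 and 0.915. With each tile counted once, the difference of T from C was -0.871 points (exact p = 0.00433, adjusted p = 0.0346), with 58.4% ± 0.321 in C and 57.6% ± 0.462 in T. The other chromosomes also fell by this measure, from 62.1% ± 0.402 to 61.1% ± 0.575, and chromosome 19 minus the others moved by 0.147 points (exact p = 0.374, adjusted p = 0.499). By tiles the other differences were also larger and did not pass after adjustment: WSD differed from C by -0.505 points (exact p = 0.260, adjusted p = 0.416) and T+WSD by -0.644 (exact p = 0.0281, adjusted p = 0.113), and the interaction was 0.732 (permutation p = 0.181, adjusted p = 0.416). Other chromosomes moved the same way: in all 3 comparisons with C, which share the C animals, the difference was negative on each of the other 19 chromosomes. The values of chromosome 19 in WSD (-0.0682) and T+WSD (-0.366) were nearer to 0 than those of any other chromosome, which reached -0.480 and -0.942 on chromosome 10. The test of that contrast did not pass. In T+WSD the nearest other value was -0.380, on chromosome 2. Leaving out an animal gave chromosome 19 values of -0.224 to 0.179 in WSD, with the sign reversed in 3 of 12 fits. In T+WSD they were -0.568 to -0.249. Chromosome 19 minus the other chromosomes was 0.292 ± 0.173 points in C, 0.373 ± 0.303 in T and 0.483 ± 0.157 in WSD, and 0.542 ± 0.260 in T+WSD. Its shift from C was 0.0806 in T (exact p = 0.580), 0.191 in WSD (exact p = 0.0714) and 0.250 in T+WSD (exact p = 0.0866), and the interaction was -0.0215 (permutation p = 0.915).

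**Figure D4:**
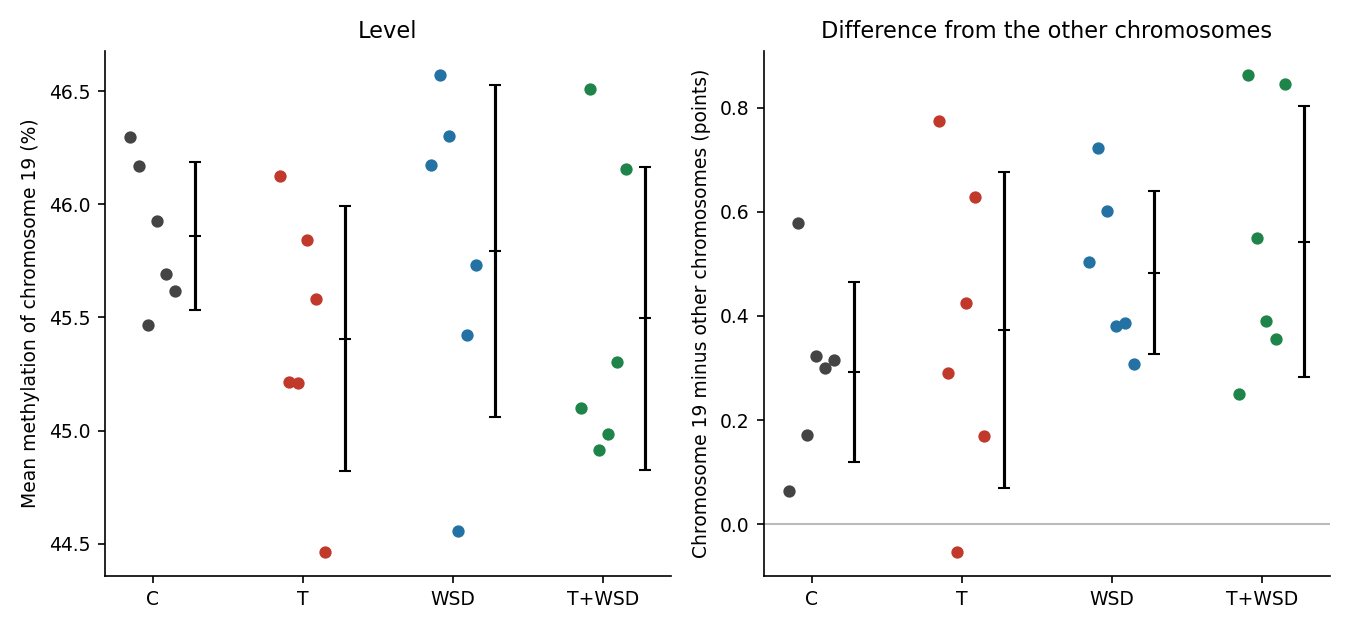
Each point is an animal, by group, with the mean and SD of the 6 animals beside the points. The left panel gives the mean methylation of chromosome 19 (percent), and the right panel gives chromosome 19 minus the other chromosomes in percentage points; in both panels every treated group overlaps C, and 23 of 24 animals lie above 0 on the right.

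In windows of 1 Mb, tested with limma and a Benjamini-Hochberg adjustment over all 1844 windows, 2 of 54 chromosome 19 windows passed in T+WSD, or 3.70%, against 10.4% of all windows. At an unadjusted p under 0.05 there were 10 (18.5%, against 25.4% of all windows). The windows were 26 to 27 Mb and 29 to 30 Mb, and methylation fell in both. At 26 to 27 Mb the level was 75.7% ± 1.04 in C, 74.0% ± 1.43 in T and 73.6% ± 1.41 in WSD, and 72.8% ± 0.482 in T+WSD (SD, n = 6 each). C animals had 74.7% to 77.5% and T+WSD animals 72.1% to 73.5%, so these groups did not overlap. The difference was -2.94 ± 0.639 points (SE; limma adjusted p = 0.0120). This was the most methylated window of the chromosome and held 327 CpGs. At 29 to 30 Mb the level was 50.7% ± 0.409 in C, 49.7% ± 0.304 in T and 50.3% ± 0.822 in WSD, and 49.5% ± 0.565 in T+WSD, and T+WSD 12 (50.3%) lay above the lowest C animals. The difference was -1.23 ± 0.350 points (SE; limma adjusted p = 0.0298). No chromosome 19 window passed in T (0.108% of all windows did), in WSD (0% did) or for the interaction (0% did). At an unadjusted p under 0.05 there were 7 in T (12.96%, against 17.03% of all windows), 3 in WSD (5.56% against 10.7%) and 0 for the interaction (0% against 4.61%). Over the 54 windows the median difference was -0.494 points in T and -0.0722 in WSD, and -0.417 in T+WSD, beside -0.458, -0.179 and -0.444 over all windows, and 39 of 54 were below 0 in T+WSD (72.2%, against 73.3% of all windows). The count of 2 rested on single animals: without C 1, C 4, T+WSD 9, T+WSD 10 or T+WSD 11 it was 1.

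At single CpGs, a differentially methylated CpG (DMC) had a limma adjusted p under 0.05 over all 841143 CpGs and a methylation difference over 10 percentage points. Chromosome 19 had 1 DMC in T (0.00559% of all CpGs were called), 1 in WSD (0.00559%), 7 in T+WSD (0.0069%) and 14 for the interaction (0.0174%), of 62025 CpGs tested. At an unadjusted p under 0.05 there were 3369, 3775, 4661 and 3350, or 5.43%, 6.09%, 7.51% and 5.40% of chromosome 19 CpGs beside 5.58%, 6.28%, 7.61% and 5.42% of all CpGs. In T+WSD 4 DMCs were higher (0.00321% of all CpGs) and 3 lower (0.00369%), and for the interaction 12 were higher (0.0139%) and 2 lower (0.00345%). The share of chromosome 19 CpGs called was 0.0113% in T+WSD and 0.0226% for the interaction. These counts rested on single animals too: in T+WSD there was 1 DMC without C 1, 2 without C 3 and 3 without T+WSD 8 or T+WSD 9, and for the interaction there were 9 without T 17. In T there were 2 to 5 without C 1, C 3, C 4, C 5, C 6 or T 14, and in WSD 2 to 4 without C 1, C 3, C 4, C 5, C 6, WSD 22, WSD 23 or WSD 24. In 1 kb tiles with at least 3 CpGs, the same thresholds called 1 of 6975 chromosome 19 tiles in T (0.00793% of all tiles), 0 in WSD (0.00397%; 486 at an unadjusted p under 0.05 by limma, 6.97% of chromosome 19 tiles beside 7.44% of all tiles), 12 in T+WSD (0.206%) and 1 for the interaction (0.0178%). Of the 12, 5 were higher (0.0793% of all tiles) and 7 lower (0.127%), and they held 3 to 18 CpGs. The T+WSD count was 0.172% of chromosome 19 tiles. With C and T+WSD alone in the fit no chromosome 19 tile was called. The count was 1 without C 1, C 3, T+WSD 8 or T+WSD 9, 2 without T+WSD 10, 4 without C 4 or C 5, 5 without T+WSD 12, 20 without T+WSD 11 and 22 without C 2. The single tile in T was called in 1 of the 12 fits that left out an animal of T or C, the fit without T 14, and with C and T alone in the fit it was not called.

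Differentially methylated regions (DMRs), in which p-values of neighbouring CpGs were combined by the comb-p procedure, numbered 1 on chromosome 19 in T, 3 in WSD, 24 in T+WSD and 2 for the interaction. CpGs inside them were 0.0113%, 0.0355%, 0.279% and 0.0177% of chromosome 19 CpGs, beside 0.00761%, 0.0258%, 0.228% and 0.0413% of all CpGs. The 24 in T+WSD were 8.57% of the 280 found, where chromosome 19 held 7.37% of CpGs. Per 10000 measured CpGs chromosome 19 had 3.87 such regions (others 1.98 to 6.30), and per Mb it had the most (0.448, others 0.0406 to 0.298). Gains numbered 15 and losses 9, beside 125 gains and 155 losses in the series. CpGs within gains were 0.168% of chromosome 19 CpGs (0.1% of all CpGs) and those within losses 0.111% (0.128%). The count was 6 without C 1, 8 without T+WSD 8, 9 without T+WSD 9, 11 without C 3 or without C 5, and at most 28 in the other fits that left out an animal. In WSD it was 6 without WSD 19, in T it was 2 without C 2, T 14 or T 16, and for the interaction it was 4 without C 1 or C 4 and 5 without WSD 20.

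The 24 T+WSD regions had a median length of 154.5 bp, with 30 to 741 bp, and a median of 6 CpGs (2 to 20). The median size of the methylation difference was 20.3 points (13.01 to 38.7). Gains had a median of 21.4 points and started from a median of 25.4% in C, and losses had a median of -18.0 points and started from 64.2%. In 20 of the 24 the T mean (83.3%, against 95.4% of the 280 regions of the series), and in 22 the WSD mean (91.7% against 96.4%), was intermediate between C and T+WSD. The regions were chosen for the distance between C and T+WSD, so this too is a description. They fell in 16 of the 54 windows, with 3 each at 6 to 7 Mb and at 12 to 13 Mb. Animals of C and T+WSD with a value did not overlap in 10 of the 22 with at least 3 CpGs, where 57.6% of such regions did so in the whole series. In the other comparisons with C this held for 1 region of 1 in T (77.8% in the series) and 1 of 3 in WSD (58.3%). For the interaction, C and T+WSD animals together were set against T and WSD animals. These did not overlap in 1 region of 2 (14.3% in the series). The rule that built the regions used the same animals, so this is a description.

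The region with the largest difference among non-overlapping gains lay at chr19:45316411-45316481 and held 7 CpGs in 71 bp. It was the only chromosome 19 region called in all 3 comparisons with C, which share the C animals, and for the interaction. Mean methylation averaged 29.3% ± 6.52 in C, 11.4% ± 3.39 in T and 13.1% ± 4.07 in WSD, and 54.3% ± 7.44 in T+WSD (SD, n = 6 each). C 1 to C 6 had 22.001%, 32.1%, 24.5%, 39.1%, 33.2% and 25.2%. T 13 to T 18 had 8.16%, 17.5%, 9.20%, 9.41%, 12.7% and 11.5%, and WSD 19 to WSD 24 had 11.8%, 11.5%, 17.7%, 14.2%, 16.7% and 6.49%. T+WSD 7 to T+WSD 12 had 45.5%, 67.6%, 50.1%, 55.3%, 54.6% and 52.5%. Every T and WSD animal thus lay below every C animal, and every T+WSD animal above. The difference from C was -18.0 points in T and -16.3 in WSD, and 24.9 in T+WSD, and the interaction was 59.2 points. The comb-p values with Sidak correction were 6.51e-05, 0.00336, 3.07e-07 and 2.13e-21. The region was called in each fit that left out an animal. Animals 1 to 12 lay above animals 13 to 24 here, and this order and the interaction cannot be told apart.

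Within this region the first CpG stood apart. At position 45316411 methylation averaged 3.04% in C, 1.97% in T and 2.37% in WSD, and 11.99% in T+WSD, while the other 6 CpGs had group means of 31.2% to 34.7% in C, 5.85% to 16.5% in T and 6.77% to 18.2% in WSD, and 57.2% to 66.9% in T+WSD. The CpG at 45316471 was the single DMC of T and of WSD and had the largest interaction. It had 33.5% ± 7.32 in C, 5.85% ± 1.85 in T and 6.77% ± 2.48 in WSD, and 62.0% ± 8.36 in T+WSD (SD, n = 6 each), a difference of -27.7 points in T (limma adjusted p = 0.000263), -26.7 in WSD (limma adjusted p = 0.000532) and 82.8 for the interaction (limma adjusted p = 4.97e-09). The CpG at 45316434 had the largest gain in T+WSD, 32.5 points (limma adjusted p = 0.0220). The nearest measured CpGs outside, 1351 bp before and 2658 bp after, did not show lower means in T and WSD together with a higher one in T+WSD: the first, where T+WSD was the highest group, had 10.5% in C, 14.5% in T and 13.9% in WSD, and 26.0% in T+WSD, and the second had 36.4%, 35.3%, 30.2% and 32.7%. Of the 14 interaction DMCs, 6 were in this region. At the 12 with a positive interaction the means of C and T+WSD were both above those of T and WSD. At the 2 with a negative one both were below, so that all 14 followed the split of the animal numbers. The interaction contrast measures this same split, so the CpGs were chosen for it and their order is a description. The largest negative interaction DMC, at 19777143, had 97.7% in C (n = 5), 100% in T (n = 5) and in WSD (n = 6), and 87.3% in T+WSD (n = 4), an interaction of -14.9 points (limma adjusted p = 0.0291). The other interaction DMR, chr19:40065701-40065765 (4 CpGs), named here outside the naming rule, had 20.5% in C, 13.5% in T and 10.6% in WSD, and 35.5% in T+WSD.

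Of the other named T+WSD gains, that at chr19:40448563-40448703 (5 CpGs) had 25.4% ± 6.45 in C, 29.0% ± 5.97 in T and 29.1% ± 6.10 in WSD, and 46.7% ± 8.36 in T+WSD, a gain of 21.4 points. Its limma-based comb-p value with Sidak correction was 0.0220. T and WSD animals lay at 18.5% to 37.5%, within or close to the range of C (18.5% to 36.8%), and T+WSD animals at 38.4% to 57.9%. This region was not called without C 1, C 5, C 6, T+WSD 8, T+WSD 9 or T+WSD 12, where its difference was 19.1 to 21.1 points. At chr19:12977297-12977367 (5 CpGs), C animals were close together at 15.8% to 20.6% (18.1% ± 1.58), T animals spread from 13.05% to 33.6% and WSD animals from 17.6% to 43.7%, and T+WSD animals lay at 31.5% to 54.9% (37.4% ± 8.86). The gain was 19.3 points, with a comb-p value of 0.00526 after Sidak correction, and T+WSD 8 was the highest animal. Another 2 gains, named after their values were seen, lay in the same window: chr19:12976537-12976767 (11 CpGs; 16.2% in C, 32.2% in T and 39.2% in WSD, and 34.5% in T+WSD) and chr19:12982262-12982303 (5 CpGs; 24.2%, 21.1%, 25.004% and 39.8%). The former was also called in WSD, where 1 C animal at 38.0% overlapped the WSD animals. The remaining WSD region, chr19:17073802-17073838 (4 CpGs), had 72.6% in C, 64.3% in T and 58.3% in WSD, and 59.4% in T+WSD.

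The largest non-overlapping T+WSD loss was at chr19:8483465-8483609 (7 CpGs, 145 bp). C 1 to C 6 had 63.3%, 63.7%, 64.9%, 72.5%, 77.9% and 79.1%, and T+WSD 7 to T+WSD 12 had 41.7%, 37.1%, 49.6%, 42.8%, 56.9% and 40%. T (59.4% ± 10.9, n = 5, since T 13 had no value) and WSD (55.8% ± 10.8) spread over both ranges. At the CpGs 8483465, 8483487 and 8483516 (87.3%, 78.2% and 81.4% in C), 5 T+WSD animals had a value, and at the later CpGs 6 did. The region values of the T+WSD animals thus did not all rest on the same CpGs. That the groups did not overlap holds only for the CpGs each animal had. The difference of group means was -25.5 points, and the mean of the differences at each CpG was -24.4 points. The comb-p value was 0.0723 after Sidak correction. The call was not stable: it held in 2 of the 12 fits that left out an animal of C or T+WSD, those without C 2 or T+WSD 11, with a difference of -28.0 to -23.8 points in all 12, and it was lost with C and T+WSD alone in the fit.

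The next loss, at chr19:16090509-16090571 (6 CpGs), rested on fewer animals, since T+WSD 7, T+WSD 10, T 13 and T 16 had no value. Methylation averaged 76.4% ± 5.14 in C (n = 6) and 54.5% ± 5.57 in T+WSD (n = 4), a difference of -21.9 points with a comb-p value of 0.0797 after Sidak correction. C animals had 67.3% to 81.1% and T+WSD animals 49.1% to 61.9%, while T (72.3% ± 5.48, n = 4) and WSD (66.1% ± 8.998, n = 6) lay between. It was called in 5 of the 12 fits that left out an animal, and not without C 1, C 4, C 5, C 6, T+WSD 8, T+WSD 9 or T+WSD 11, and its difference was -24.4 to -20.2 points in all 12.

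At chr19:1071817-1071996 (8 CpGs, 180 bp), C 1 to C 6 had 66.3%, 63.9%, 67.0%, 54.1%, 73.4% and 54.9%, and T+WSD 7 to T+WSD 12 had 38.8%, 43.9%, 40.9%, 41.0%, 45.8% and 41.3%. T was at 51.9% ± 6.81 and WSD at 51.4% ± 8.92, between C (63.3% ± 7.48) and T+WSD (41.9% ± 2.48). The loss was -21.3 points, with a comb-p value of 2.23e-06 after Sidak correction, and it was called in each fit that left out an animal. Its CpG at 1071980 was the DMC with the largest loss, -29.3 points (limma adjusted p = 0.0188).

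**Figure D5:**
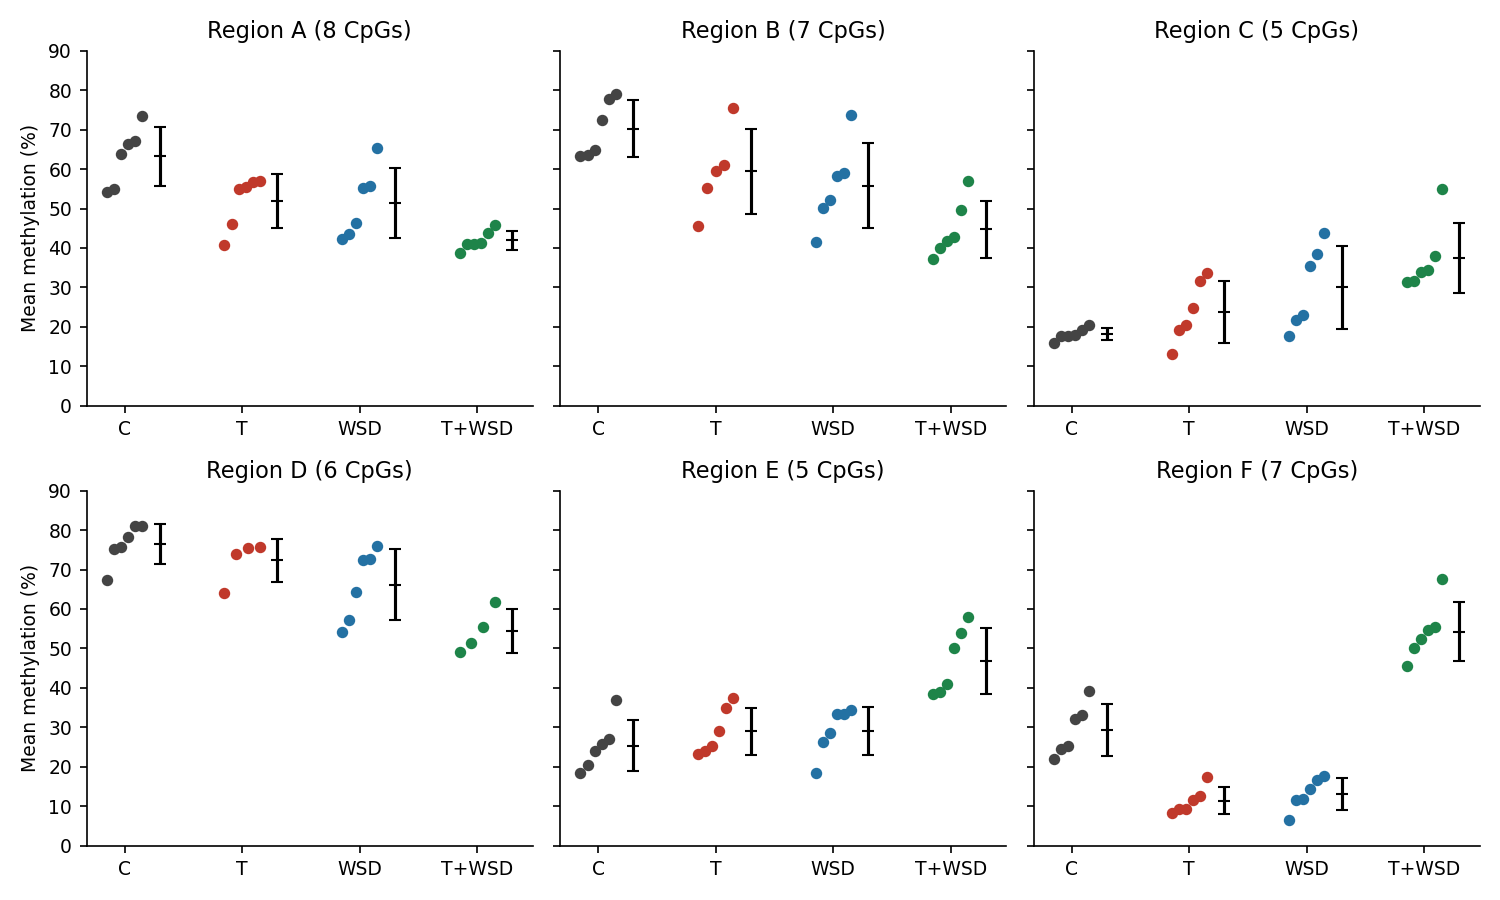
Mean methylation (percent) of each animal is plotted by group for the 6 named T+WSD regions in order along the chromosome, with the mean and SD of the animals with a value beside the points. Regions A, B and D are the losses from 1071817, 8483465 and 16090509, and C, E and F are the gains from 12977297, 40448563 and 45316411; in region F alone, T and WSD animals lie on the opposite side of C from T+WSD.

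Tiles of 1 kb were also tested one by one. For the regions from 8483465, 12977297, 40448563 and 45316411 the tile held the same CpGs as the region, in the same animals, so its test re-uses the values by which the region was chosen and is no independent support. Of the tiles holding the 6 named T+WSD regions, 3 were called: those from 45316001 (limma adjusted p = 0.00795), 40448001 (limma adjusted p = 0.0298) and 8483001 (limma adjusted p = 0.0415). The tile from 12977001 (limma adjusted p = 0.0568) and that from 1071001 did not pass, and the latter, with 19 CpGs of which 8 were in the region, differed by -11.5 points (limma adjusted p = 0.0590). The tile from 16090001 (8 CpGs) differed by -6.36 points (limma adjusted p = 0.939). T+WSD 7 and T+WSD 10, without a value in the region, could enter this tile only through CpGs outside the region. Such a CpG, at 16090147, averaged 98.8% in C and 94.7% in T+WSD. The tile value thus did not rest on the same CpGs in each animal and cannot be set against that of the region. With C and T+WSD alone in the fit none of the tile calls named here was made.

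The largest gain among called tiles was 26.7 points at chr19:3221001-3222000 (6 CpGs), which rose from 23.7% ± 7.78 in C to 50.4% ± 13.3 in T+WSD (limma adjusted p = 0.0415). In that tile T had 36.6% ± 9.01 and WSD 43.9% ± 8.77, and T+WSD 11 (29.9%) lay within the range of C. Beside the tile from 8483001, the named tile losses were those from 10548001 and 494001. At chr19:10548001-10549000 (6 CpGs), methylation averaged 58.3% ± 11.4 in C, 52.0% ± 4.81 in T and 54.0% ± 9.34 in WSD, and 37.0% ± 4.62 in T+WSD (limma adjusted p = 0.0492). C animals had 47.2% to 77.8% and T+WSD animals 30.9% to 42.4%. At chr19:494001-495000 (18 CpGs), methylation fell from 36.5% ± 7.32 to 18.8% ± 3.95 (limma adjusted p = 0.0362), with T at 29.4% ± 6.74 and WSD at 26.6% ± 5.53 between them. The tile from 45316001 was also the single tile in T (limma adjusted p = 0.0458) and for the interaction (limma adjusted p = 4.31e-07).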

How the data were processed

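The authors trimmed RRBS reads with Trim Galore 0.4.2 and aligned them to rheMac8 with Bismark 0.16.1, per the labels' processing notes and the study's methods. The values the authors deposited are the percent methylation of each CpG in each animal, kept at 10X or more in at least 4 animals of every group. Reads per value are not in the table, so depth is unknown and no counting interval was computed. Chromosome means used CpGs with a value in all 24 animals; windows of 1 Mb needed 50 of them and tiles of 1 kb 3 CpGs. Whole-chromosome values were compared by permutation. DMCs, tiles and windows were tested with the moderated test of limma, written again in Python 3.11.15. It used arcsine-transformed rates (windows on percent), with all 4 groups in 1 fit. Values given as limma are from this version. For DMCs, limma 3.58.1 itself (R 4.3.3) gave identical calls (47, 47, 58 and 146). Tiles and windows were not run in limma itself. DMRs followed comb-p (steps of 50 bp, joined within 300 bp, at least 2 CpGs, Sidak p under 0.1, difference over 10 points), written again with numba 0.67.0. Scripts were tested on simulated data. Named were the 3 highest, lowest and most CpG-rich windows, windows that passed, the 3 largest gains and losses among called tiles and among DMRs of at least 3 CpGs with non-overlapping animals, and the largest DMC each way. Members, lists and settings were chosen with earlier results of these data known. Each animal is 1 library. Alternatives covered CpG and tile weighting, missing values, thresholds, transformation, samples in the fit and leaving out each animal. A planned test of promoters was not run, since the annotation used here is of another build, and no sequence is printed. The labelled tissue was not checked against markers.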

Additional observations from a re-analysis of the deposited data

Results flagged for a closer look

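In the region from 12977297, T+WSD 8 had 54.9% methylation, while the other T+WSD animals had 31.5% to 38.0%, and its gap to the next animal exceeded the 95% limit of Dixon's test for 6 samples. The region was called without this animal, with a difference of at least 15.8 points in the fits that left out an animal. In the region from 16090509, T 15 had 64.2%, while the other 3 T animals with a value had 74.0% to 75.6%, a gap over the limit of the same test for 4 samples. Of 64 group and value combinations examined this way, 2 stood out, where chance would give 3.2.

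The effect of testosterone differed between the diets at 14 DMCs, 2 DMRs and 1 tile of chromosome 19, by the interaction test itself. These were 0.0226% of its CpGs (0.0174% of all CpGs were called) and 0.0143% of its tiles (0.0178%), and 0.0177% of its CpGs lay in such DMRs (0.0413%). The region from 45316411 held 6 of those DMCs and accounted for 1 of the DMRs and for the tile. At all 14 DMCs the group means divided as the animal numbers do (1 to 12 against 13 to 24). The interaction test measures this same division, so the DMCs were chosen for it. The numbering and the interaction cannot be told apart.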

How the results depend on the processing

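No paired analysis was possible because no animal number occurs in more than 1 group. Chromosome 19 against the other chromosomes reversed to -3.58 points over tiles and to -0.418 with all CpGs, and tiles of 6 to 10 CpGs to 5.45 with density as neighbours within 100 bp (no value over 40 CpGs); the T level over tiles became -0.871 with a passing test. Counts moved by over 1.5 times were: on complete CpGs and untransformed, 9 and 9 interaction DMCs; at adjusted p under 0.1, 2 WSD and 20 T+WSD DMCs; with at least 5 CpGs, 20 T+WSD tiles; untransformed, 0 T and 22 T+WSD tiles; in compared groups alone, 4 T and 4 WSD DMCs, 0 T and 0 T+WSD tiles; at levels of 5% to 95%, 4 T, 9 WSD and 8 interaction DMRs. The cause was not tested.

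Leaving out an animal gave levels of -0.599 to -0.266 (T), -0.224 to 0.179 (WSD), -0.568 to -0.249 (T+WSD) and -0.0903 to 0.313 (interaction); relative to other chromosomes, 0.000184 to 0.166, 0.144 to 0.248, 0.186 to 0.309 and -0.107 to 0.0588. None passed after adjustment. The WSD level turned sign in 3 of 12 fits, and the interaction in 3 of 24 (level) and 9 of 24. In the same order, DMCs numbered 1 to 5, 1 to 4, 1 to 10 and 9 to 15, tiles 0 to 1, 0 to 1, 1 to 22 and 1 to 2, DMRs 1 to 2, 2 to 6, 6 to 28 and 2 to 5, and T+WSD windows 1 to 2. Leaving out animals from DMC fits was added after the data had been seen. Of 437 alternative values that answer a comparison, 344 kept their direction and side of the threshold or stayed within 1.5 times, 74 moved further, 18 reversed and 1 newly passed. The reads behind each value are unknown, so depth could not be weighed.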
